A study of Mus musculus with 12 samples.

Results

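Skin around a healing incision was compared with uninjured skin of the same strain, in mice that received only the vehicle phosphate-buffered saline (PBS). These were 6 of the 12 arrays of the series, taken by their labels: 3 of incised skin injected with PBS and 3 of intact skin injected with PBS. Each array held skin RNA from male C57BL/6 mice of about 8 weeks, labelled with Cy5, against a mouse universal reference RNA labelled with Cy3. The wounds were sutured incisions of 1 cm, PBS was injected into the dermis 72 h after wounding, and skin was taken 24 h after the injection, so the wounds were 4 days old. Intact skin was likewise taken 24 h after PBS. The body site of either group is not given in the labels used here. The other 6 arrays, of incised skin given a miR-29b mimic and intact skin given an inhibitor of miR-29, entered the fit so that all groups shared 1 estimate of the spread, but their effects are not reported. The labels call the samples biological replicates, 3 per group, and do not say how many mice each held.

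A skin wound heals in overlapping stages. Neutrophils and then monocytes enter from the blood, keratinocytes at the edge change their keratins and crawl over the gap, and fibroblasts lay down provisional matrix and collagen that proteases then remodel. In mice the thin sheet of skeletal muscle beneath the skin, the panniculus carnosus, is cut along with it, as are small nerves.

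Every level below is a log2 ratio of skin over the reference, so a difference of 1 is a 2-fold change, and levels of different genes are not compared because each has its own reference level. Of 20460 genes tested with limma, 2020 were higher in incised skin (9.87% of those tested) and 1139 were lower (5.57%) at a Benjamini-Hochberg adjusted p under 0.05. The changes exceeded 2-fold for 445 of the higher and 127 of the lower genes. The 3 incised arrays lay wholly above the 3 intact arrays for 4026 genes (19.7%) and wholly below for 3157 (15.4%). The median difference of all genes was 0.00. With median centring of the arrays in place of loess normalization the split turned to 1424 higher and 2009 lower.

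Several arrays stood apart before any gene was considered. Intact array 3 had a median correlation of 0.921 with its own group, against 0.939 and 0.946 for intact arrays 2 and 1 and 0.964 to 0.975 for the incised arrays. Its adipocyte markers were high, with a median of 0.79 around the 6-array mean, and its keratinocyte activation, matrix and cell cycle genes were low. Incised array 2 had a like adipocyte value of 0.72, and the other 4 arrays had values from -0.51 to -0.27. Intact array 2 had a hair follicle value of 2.78, against -0.56 to -0.40 on the other arrays. The arrays also lay on 3 slides: all 3 incised arrays on slide 1, intact arrays 1 and 2 on slide 2, and intact array 3 on slide 3. No slide held both groups, so no value within a slide can be had; slides 1 and 2 were joined by the mimic arrays, and slides 2 and 3 by the intact PBS arrays. With slide as a fixed block the fit called 9 genes higher and 2 lower, its median standard error rose from 0.12 to 0.20, and 2018 of the 2020 higher and 1137 of the 1139 lower genes kept their sign. Among the 11 were Trem2 and Th, and also Cx3cr1 and Irf8, named after their values were seen. With slide as a random block 1443 were higher and 697 lower.

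Calls were also refitted with each of the 6 arrays left out in turn. The genes named below as changed kept their call in all 6 of these fits, apart from those that follow. The call held in 5 fits for Apln, Chil1, Col8a1, Egf, Galnt15, Il1b, Lck, Npy1r and Slfn4, and in 4 for Fgf1, Gsdmc3, Il20ra, Nr4a1 and Orm1. It held in 3 for Gldn, Oas3, Plau, Ptprc, Slc2a1, Stfa2l1 and Tgfbr2, and in 2 for Abra, Ccl24, Csta3, Cxcr2, Prx, Pvalb, Serpinb2, Sox10, Stab1, Timd4, Tpx2 and Vgll2. It held in 1 for C7, Calcb, Ccn1, Col3a1, Cyp1a1, Hoxa9, Il2rb, Myh4, Mymx, Ndufa4 and Sfrp5. Leaving out intact array 3 ended the calls of Ptprc, Stab1, Vgll2, Ccn1, Myh4, Pvalb, Il2rb and Slc2a1, with adjusted p from 0.0504 (Ptprc) to 0.0902 (Myh4), and of further genes given below.

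**Figure D1:**
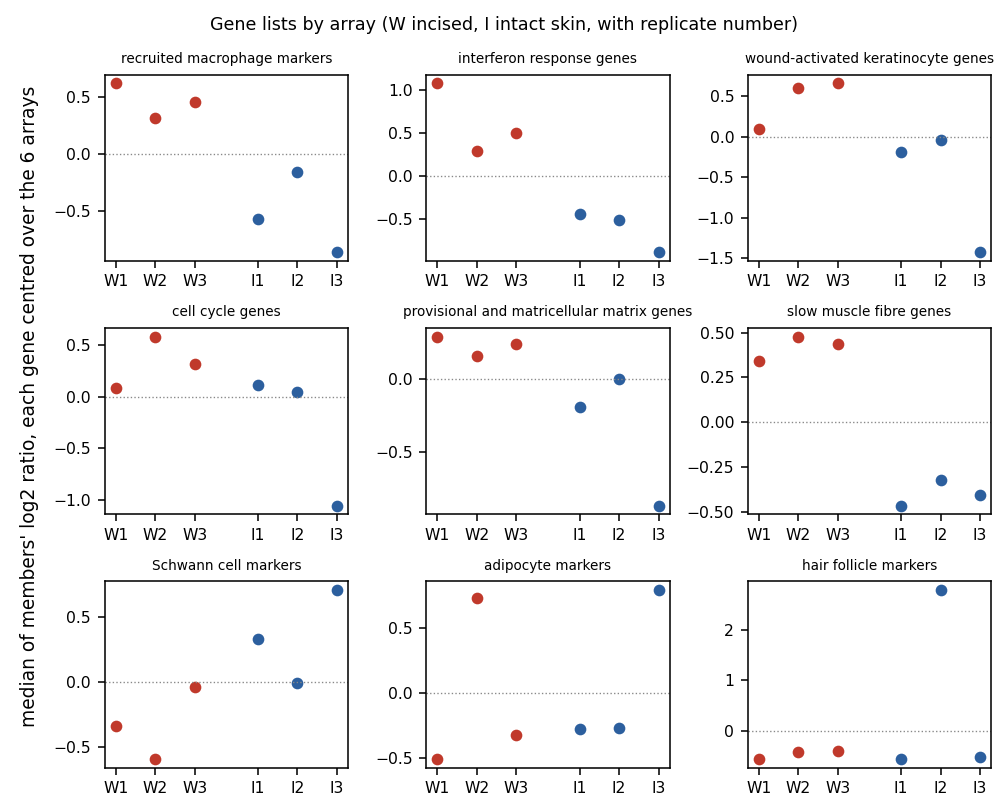
Each point is the median over a gene list of the members' log2 ratios in 1 array, each gene centred over the 6 arrays, for incised (red, W) and intact (blue, I) skin with the replicate number. Intact array 3 is low for wound-activated keratinocyte (-1.42) and cell cycle (-1.06) genes, adipocyte markers are high in incised array 2 and intact array 3, and the slow muscle fibre genes separate the groups (0.34 to 0.48 against -0.46 to -0.32).

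The label of the tissue was borne out by its markers. Krt14, the keratin of basal keratinocytes, read 4.21, 4.43 and 4.40 in incised and 4.22, 4.13 and 3.78 in intact arrays, and Krt10, the keratin of differentiating layers, differed by -0.12 ± 0.23 (SE). The fat hormone gene Adipoq differed by 0.20 ± 0.30 and the skeletal muscle actin gene Acta1 by -0.26 ± 0.13, and none of these 4 passed the test. All 4 stood well above the reference on every array, the lowest value being 3.78, of Krt14 in intact array 3. In bulk skin fewer cells of a type and less RNA per cell cannot be told apart. Of 2 common control genes, Gapdh differed by -0.05 ± 0.15, while Actb rose by 0.75 ± 0.13 (adjusted p = 0.00496).

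**Figure D2:**
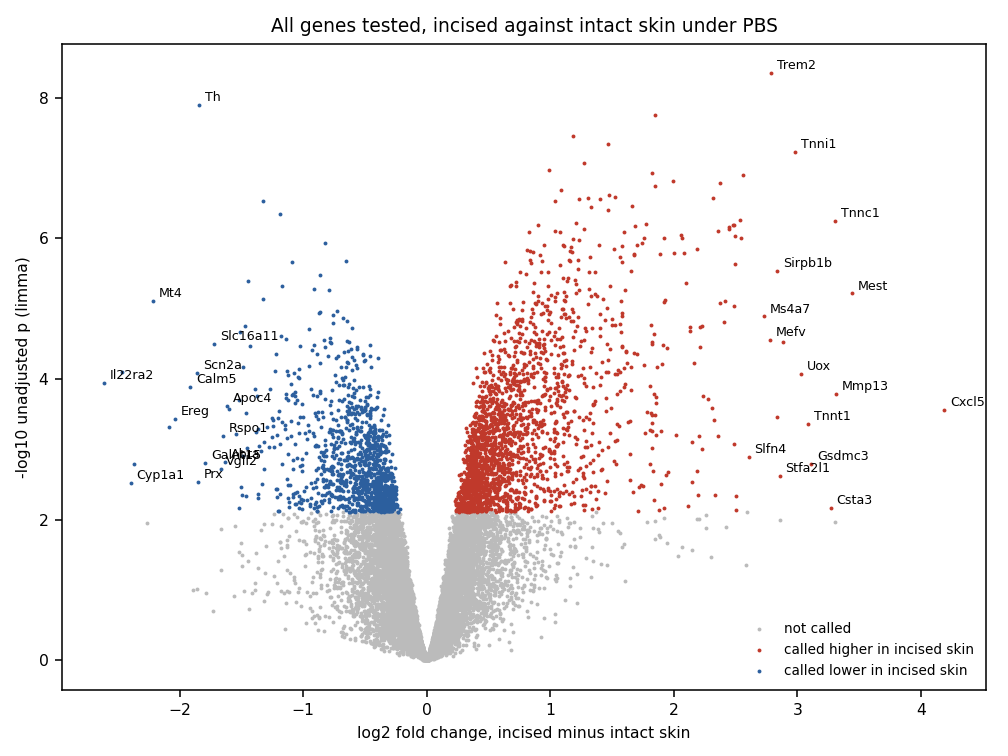
Each point is 1 of the 20460 genes, with the log2 fold change of incised over intact skin on the horizontal axis and -log10 of limma's unadjusted p on the vertical axis; red genes were called higher and blue genes lower. The labels are on the 15 largest rises and 14 of the 15 largest falls among called, named genes whose groups did not overlap, from Cxcl5 at 4.19 to Il22ra2 at -2.61.

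The largest rise among the genes named by rule was that of a neutrophil chemokine. Cxcl5, whose product binds the receptor Cxcr2 and draws neutrophils, read 0.91, -0.89 and -0.55 in incised skin and -3.74, -3.85 and -5.50 in intact skin (probe on chromosome 5, 91190490 to 91190549, mm9). All incised values were far above all intact values, though a lack of overlap was part of the rule that named Cxcl5. The difference was 4.19 ± 0.79 (SE, n = 3 each, limma adjusted p = 0.00723). Its receptor gene Cxcr2 rose by 0.98 ± 0.27 (adjusted p = 0.0323), but not without intact array 3 (0.68, adjusted p = 0.0754). The related ligand genes gave smaller differences. Cxcl1 differed by 1.07 ± 0.35 (adjusted p = 0.0613), Cxcl2 by 0.48 ± 0.42, Cxcl3 by 0.51 ± 0.54 and Ppbp by 0.10 ± 0.63. None of these 4 passed, the arrays of Cxcl3 and Ppbp overlapped, and Cxcr1 was not well above background in incised skin. In the family of 7, then, 2 genes rose (28.6% against 9.87% of all genes), with a median of 0.51 against 0.00 for all genes.

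Neutrophil markers rose in part. Of 16 measured, 4 were called higher and 0 lower (25% against 9.87% of all genes), with a median of 0.94. Without intact array 3 these were 4 and 1, with a median of 0.65, and without both arrays rich in adipocyte markers 3 and 1. S100a9, a calcium-binding protein abundant in neutrophils and also made by wound keratinocytes, read 6.88, 7.43 and 7.22 in incised and 5.31, 5.09 and 5.34 in intact skin. The groups were well apart, at 1.93 ± 0.24 (adjusted p = 0.00116). The gelatinase gene Mmp9 and the receptor gene Trem1 also rose, by 2.21 ± 0.33 and 0.55 ± 0.11. Ly6g, which defines neutrophils in mice, differed by 0.01, the granule genes Mpo and Elane by 0.06 and 0.19, and Camp by -0.61, none past the threshold. These 4 were picked after their values were seen.

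Most markers of recruited macrophages rose. All 21 measured were positive and 15 were called higher (71.4% against 9.87% of all genes), with a median of 0.90 that was 0.80 without intact array 3 and 0.77 with slide as a fixed block. Without both arrays rich in adipocyte markers 7 were called, and the median was 0.93. With median centring 11 were called, and the median was 0.60. Trem2, a lipid-sensing receptor of macrophages, read 1.06, 1.28 and 1.13 in incised skin and -1.91, -1.42 and -1.57 in intact skin (chromosome 17, 48491537 to 48491596). Both groups were tight and wide apart, which gave the smallest p of all genes (2.79 ± 0.17, adjusted p = 9.2e-05). Ms4a7, a membrane protein of monocyte-derived macrophages, rose by 2.73 ± 0.36. Ccr2, the receptor that brings monocytes from the blood, read 5.02, 5.15 and 5.43 in incised and 3.25, 4.18 and 2.60 in intact skin, and rose by 1.86 ± 0.33 (adjusted p = 0.00571). The intact arrays were more scattered than the incised ones for this gene. The pan-leukocyte gene Ptprc rose by a smaller 0.90 ± 0.22 (adjusted p = 0.0196).

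Few markers of macrophages that reside in the dermis were called, and these went in both directions. Of 15 measured, 1 was higher and 2 lower (6.67 and 13.3% against 9.87 and 5.57% of all genes). The median was 0.15, and with median centring or with Cy5 alone that median was at or just below 0. Timd4, a receptor for dying cells, read 0.58, 1.12 and 0.86 in incised and 2.69, 1.67 and 1.46 in intact skin, a fall of 1.08 on the log2 scale (SE 0.31, adjusted p = 0.0375). Ccl24, an eosinophil chemokine of resident macrophages, fell by 1.37 ± 0.38 (adjusted p = 0.035), although intact array 3 at -0.62 lay among the incised values of -1.27, -1.13 and -0.50. Lyve1, a hyaluronan receptor shared with lymphatic vessels, differed by -1.18 ± 0.44 (adjusted p = 0.0922). Stab1, a scavenger receptor, went the other way and rose by 1.09 ± 0.27, but was not called without intact array 3. The difference between the resident and the recruited lists was not tested.

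Many genes for what phagocytes do were higher too, on lists that share members such as Fcgr1 and Ctss with the macrophage markers. Of 18 genes of the phagocyte oxidase and its activating receptors, 15 were higher and 0 lower (83.3% against 9.87% of all genes, median 1.09). Of 17 lysosomal genes 13 were higher and 0 lower (76.5%, median 0.60). Without both arrays rich in adipocyte markers these counts were 11 and 7. Cyba, the membrane subunit of the oxidase, rose by 1.42 ± 0.22, and the antibody receptors Fcgr1 and Fcgr4 by 2.13 ± 0.30 and 2.16 ± 0.34. Lgmn, the lysosomal asparagine protease legumain, read 2.38, 2.46 and 2.28 in incised skin and 0.38, 1.20 and 0.42 in intact skin. This was a rise of 1.71 ± 0.18 (adjusted p = 0.000457) with no overlap. The cathepsin genes Ctsb, Ctsc and Ctss rose by 1.23, 1.10 and 2.13. Sirpb1b and Mefv, a myeloid receptor and the inflammasome protein pyrin, were among the largest rises at 2.84 ± 0.32 and 2.78 ± 0.40, but the other probes of these genes gave 2.16 and 0.55.

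Of 10 markers of dendritic and Langerhans cells 5 were higher (50% against 9.87% of all genes), or 2 without intact array 3. Among them were Flt3, the growth factor receptor of dendritic cells, at 0.76 ± 0.15 (another probe gave -0.06), and Ccr7, which guides them to lymph nodes, at 1.89 ± 0.39. Of 17 markers of T or NK cells all were positive with a median of 0.17, which was -0.03 with slide as a fixed block, and 2 were higher (11.8%, near the 9.87% of all genes): the T cell kinase gene Lck at 0.63 ± 0.14 and the receptor gene Il2rb at 0.62 ± 0.17. The T cell receptor component Cd3d, a marker fixed for this cell type, differed by 0.49 ± 0.25 and did not pass. Among alternative activation genes 3 of 11 rose (27.3%). They were Arg1, which breaks down arginine, at 1.94 ± 0.29, Il4ra, the receptor for interleukin-4, at 1.65 ± 0.26 (another probe gave 0.33) and the chitinase-like Chil1 at 1.39 ± 0.32.

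The CC chemokines, which steer monocytes, eosinophils and T cells, moved both ways. Of 23 ligand and receptor genes 11 were higher and 2 lower (47.8% against 9.87% and 8.7% against 5.57%), with a median of 0.58. Without both arrays rich in adipocyte markers 6 were higher. Ccl4, a ligand for monocytes and T cells, read -0.20, -0.89 and -0.49 in incised and -2.51, -2.17 and -3.82 in intact skin, a rise of 2.31 ± 0.43 (adjusted p = 0.00705). Ackr2, a scavenger that removes inflammatory CC chemokines, read 3.67, 3.30 and 3.59 in incised and 4.26, 4.48 and 4.48 in intact skin. It fell by 0.89 on the log2 scale (SE 0.14, adjusted p = 0.00267), but its other probe gave -0.16. Cxcr4, a receptor that holds and guides leukocytes and progenitor cells, rose by 1.40 ± 0.15 with values of 0.11, 0.17 and 0.10 in incised and -1.45, -0.95 and -1.42 in intact skin.

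Cytokine genes outside the chemokines changed in smaller numbers. Il1b, the main inflammatory interleukin-1, rose by 2.49 ± 0.54 (adjusted p = 0.0132), from 1.12, 1.00 and 0.18 in intact skin to 3.71, 2.71 and 3.33. Il33, an alarm signal of barrier cells, rose by 1.58 ± 0.24. These were the 2 called among 15 genes of the interleukin-1 family (13.3% against 9.87% of all genes). Of 23 other wound cytokine genes 6 were higher and 1 lower (26.1 and 4.35% against 9.87 and 5.57% of all genes). Without both arrays rich in adipocyte markers these were 2 and 1. Tnfrsf1b, a receptor for tumour necrosis factor, rose by 0.92 ± 0.15 and Tslp, an epithelial cytokine, by 0.78 ± 0.16, while the receptor gene Il20ra fell by 1.09 ± 0.25. The largest fall of all was in Il22ra2, the secreted decoy that binds interleukin-22. It read 3.42, 2.37 and 3.58 in incised and 5.45, 6.39 and 5.37 in intact skin, a difference of -2.61 ± 0.44 (adjusted p = 0.00454). Il22 itself, a gene named after its value was seen, differed by -0.12 ± 0.11.

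Interferon response genes had the largest median of the 53 lists as fitted here, though not with Cy5 alone, where it was 1.29 against 1.76 for wound-activated keratinocyte genes, nor with slide as a fixed block, without incised array 1 or without intact array 2. All 28 were positive, 26 separated the groups without overlap (against 19.7% of all genes), and 23 were called higher (82.1% against 9.87% of all genes), with a median of 1.33. This median was 1.17 without intact array 3, when 16 were called, and 0.96 with slide as a fixed block. Slfn4, a myeloid schlafen gene, rose by 2.61 ± 0.61 and Isg15, a ubiquitin-like modifier, by 2.20 ± 0.47 (adjusted p = 0.0114). Isg15 read 1.80, 0.77 and 1.07 in incised and -0.36, -0.66 and -1.95 in intact skin, and intact array 3 was the lowest. The helicase genes Ddx58 and Dhx58, which sense or control the sensing of viral RNA, had the smallest p of the list at 1.07 ± 0.15 and 1.41 ± 0.19 (adjusted p = 0.00174 each). Incised array 1 was the highest of the 6 for both, with 1.03 and 1.94, and all 3 intact arrays were lower than all incised ones. The 5 members that did not pass were Ifit1 at 1.39, Mx1 at 1.22, Rsad2 at 1.01, Cmpk2 at 0.95 and Gbp2 at 0.37. Isg15 and these 5 were named after their values were seen.

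The promoters of these genes are shown because the list moved together and its common control element can be read in them. The element, named ISRE, was searched as GAAA, any 2 bases and GAAA again, on both strands, in windows from 250 bases before to 50 after the RefSeq start sites (GRCm38.p6). Such windows were found for 13597 of the 20460 genes. The letters occurred in 11 of the 20 windows of 19 interferon response genes (55%), in 6.05% of windows of all genes with a higher call and in 2.06% of windows with a lower one. The share over all 17024 windows was 3.17%. The 4 stretches below lie before the start site of genes called higher and carry the matches in capitals, where adjoining matches overlap. Isg15 lies at chr4:156200835-156200936 on the minus strand, Ifit3 at chr19:34583333-34583456 on the plus strand, Oas3 at chr5:120777685-120777774 on the minus strand and Bst2 at chr8:71537547-71537642 on the minus strand.
Isg15: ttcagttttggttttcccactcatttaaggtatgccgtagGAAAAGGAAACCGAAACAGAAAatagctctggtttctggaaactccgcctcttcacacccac
Ifit3: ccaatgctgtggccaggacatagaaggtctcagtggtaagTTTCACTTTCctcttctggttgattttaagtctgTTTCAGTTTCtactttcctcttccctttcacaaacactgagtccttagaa
Oas3: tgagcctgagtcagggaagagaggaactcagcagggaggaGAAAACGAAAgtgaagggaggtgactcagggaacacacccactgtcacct
Bst2: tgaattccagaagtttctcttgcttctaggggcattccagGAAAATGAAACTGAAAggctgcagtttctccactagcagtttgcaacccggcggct
Isg15 held 3 overlapping matches, Ifit3 and Bst2 held 2 each and Oas3 held 1. A match is a description of the letters and not a measured site. Ifit3, an antiviral effector, rose by 1.20 ± 0.23, Bst2, which tethers budding viruses, by 1.60 ± 0.27, and the oligoadenylate synthetase gene Oas3 by 0.66 ± 0.17, without a call when intact array 3 was left out (adjusted p = 0.0684). These 3 were picked for their promoters.

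**Figure D3:**
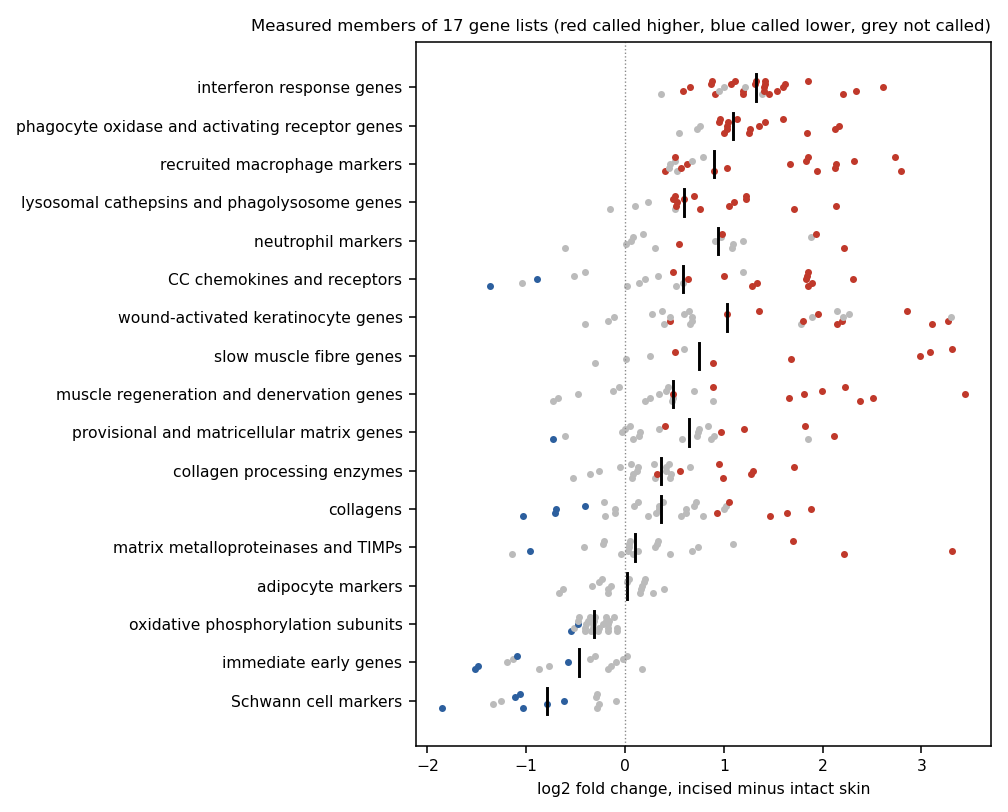
Each point is 1 measured gene of a list, placed by its log2 fold change of incised over intact skin, red where called higher, blue where called lower and grey where not called; black bars are list medians. The upper lists, of interferon response and phagocyte genes, lie almost wholly above 0, the collagens have calls on both sides (5 higher and 4 lower), and the subunits of oxidative phosphorylation and the Schwann cell markers lie below 0.

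Among the proteases that cut matrix and their inhibitors, few genes changed, some of them strongly. Mmp13, the main collagenase of mice, read 2.10, 3.14 and 2.76 in incised skin and 0.54, -0.80 and -1.69 in intact skin, a rise of 3.31 ± 0.59 (adjusted p = 0.00546; chromosome 9, 7282762 to 7282821, mm9). The difference was 1.74 with slide as a fixed block. Timp1, an inhibitor of these proteases, rose by 1.70 ± 0.26, while Timp3, the inhibitor bound to matrix, fell by 0.96 ± 0.19 with values of -0.47, -0.55 and -0.49 in incised and 0.40, 0.05 and 0.93 in intact skin. With Mmp9 these were the 4 calls among 22 genes (13.6% higher against 9.87% of all, and 4.55% lower against 5.57%), and the median was 0.10. Of the rest, the neutrophil collagenase Mmp8 differed by 1.10 ± 0.38 (adjusted p = 0.0774), the stromelysin Mmp3 by 0.74 ± 0.35, the macrophage elastase Mmp12 by 0.68 ± 0.29 and the membrane protease Mmp14 by 0.46 ± 0.19. Mmp10, Mmp19 and Mmp23 lay from 0.30 to 0.33, Mmp1b, Mmp11, Mmp15, Mmp17, Mmp21, Mmp24 and Mmp25 from -0.04 to 0.13 (Mmp21 and Mmp25 not well above background in incised and in intact skin, respectively), Mmp27, Timp2 and Mmp2 from -0.42 to -0.21, and Timp4 at -1.14 ± 0.74. None of these passed. The gelatinase gene Mmp2, expressed by fibroblasts, stood at -0.42 ± 0.21 (adjusted p = 0.202).

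The promoters of Mmp13 and of Slfn4 are set side by side because both genes were among the 15 largest rises and both carry the element of the AP-1 factors, searched as TGANTCA on both strands and shown in capitals. They are at chr9:7272439-7272513 and chr11:83175112-83175185 (GRCm38.p6, both on the plus strand) and end at the last base before the start site.
Mmp13: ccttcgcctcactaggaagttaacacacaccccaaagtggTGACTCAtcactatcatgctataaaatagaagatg
Slfn4: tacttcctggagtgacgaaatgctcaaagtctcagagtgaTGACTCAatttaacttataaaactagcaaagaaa
These letters were in 7.62% of windows with a higher call, 6.52% with a lower call and 6.27% of all windows, so that neither share was far from that of all windows. In the same order, shares for the TATA box (TATAAA) were 10.8, 8.04 and 9.55%, for the C/EBP element (TTGCNNAA) 10.4, 7.77 and 9.47%, and for the NF-kappaB element 6.17, 5.54 and 5.16%. For GAS (TTCNNNGAA) they were 7.2, 5.54 and 7.29%, for CRE (TGACGTCA) 2.12, 3.13 and 2.62% and for MEF2 (CTA, any 4 bases and TAG) 3.09, 3.22 and 3.37%.

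Collagen genes did not move as a block. Of 28 measured, 5 were higher and 4 lower (17.9 and 14.3% against 9.87 and 5.57%), with a median of 0.36 that was 0.24 without intact array 3, when 2 were higher and 3 lower, and 0.06 with slide as a fixed block. Without both arrays rich in adipocyte markers 0 were higher and 2 lower. Col3a1, a fibrillar collagen of early scars, read 3.83, 3.32 and 3.20 in incised and 2.09, 2.64 and -0.01 in intact skin. Its rise of 1.88 ± 0.57 only just passed (adjusted p = 0.0488) and became 1.09 without intact array 3 (adjusted p = 0.075). Col1a1 and Col1a2, the chains of type I collagen, differed by 0.62 ± 0.51 and 0.72 ± 0.44, did not pass, and overlapped between the groups. Without intact array 3 they stood at -0.05 and 0.15. Col8a1, a short-chain collagen, rose by 1.47 ± 0.33. On the other side were basement membrane and membrane-bound chains: Col4a4 read 0.63, 0.19 and 0.55 in incised and 1.23, 1.23 and 0.99 in intact skin and fell by 0.69 ± 0.14 (adjusted p = 0.00821). Col23a1 fell by 0.71 ± 0.15, and Col4a3, not well above background in incised skin, was at least 1.36-fold lower there (adjusted p = 0.0132).

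Enzymes and matrix proteins around collagen rose more often than they fell. Of 24 collagen processing enzymes 7 were higher (29.2% against 9.87% of all genes) and 0 lower, or 4 and 1 without intact array 3. The median of 0.37 was 0.18 without that array and 0.14 with slide as a fixed block. Loxl3, which cross-links collagen, read -0.13, -0.13 and -0.23 in incised and -1.18, -0.88 and -1.41 in intact skin, a rise of 0.99 ± 0.18, and Plod2, which hydroxylates collagen for cross-links, rose by 0.96 ± 0.18. Of 22 provisional and matricellular genes 5 were higher (22.7%) and 1 lower (4.55%, against 5.57% of all genes). The median of 0.65 was 0.41 without intact array 3 and 0.25 with slide as a fixed block. Tnc, the wound-edge glycoprotein tenascin C, rose by 1.20 ± 0.26 and Ccn4 by 1.82 ± 0.27, while Ccn1, of the same family, fell by 0.73 ± 0.20 (adjusted p = 0.0326). Among 11 elastic fibre genes Ltbp2, Efemp2 and Emilin1 rose by 1.12 ± 0.18, 1.55 ± 0.25 and 0.62 ± 0.13 and Ltbp4 fell by 0.59 ± 0.09. These calls were 27.3% higher and 9.09% lower, and the list median of 0.45 was 0.13 with slide as a fixed block. Intact array 3 had the lowest value of the matricellular list (-0.87, against -0.19 and 0.00 on the other intact arrays) and also the high adipocyte value given above. Without both arrays rich in adipocyte markers 3 collagen processing enzymes were higher and 1 lower. In that fit 2 matricellular genes were higher and 0 lower, and 2 elastic fibre genes were higher and 1 lower. The part of fat content in these results was not tested.

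The TGF-beta and plasminogen systems were likewise mixed. Of 19 TGF-beta genes 5 were higher and 2 lower (26.3 and 10.5% against 9.87 and 5.57% of all genes), with a median of -0.03. Without intact array 3 these were 3 and 2, with a median of 0.16. Tgfb1, the ligand released in wounds, read -0.02, -0.01 and 0.01 in incised and -0.54, -0.42 and -0.61 in intact skin, a small but tight rise of 0.52 ± 0.08 (adjusted p = 0.00347). The receptor genes Tgfbr3 and Tgfbr2 fell (-1.03 ± 0.17 and -0.45 ± 0.11), although another Tgfbr2 probe gave 0.43. Acta2, the smooth muscle actin that myofibroblasts also make, rose by 0.66 ± 0.13, with incised values of -0.44, -0.24 and -0.35 just above the intact values of -0.65, -1.25 and -1.10. Of 11 plasminogen system genes 3 were higher and 2 lower (27.3 and 18.2%), or 1 and 2 without intact array 3. Plau, the urokinase, rose by 0.60 ± 0.15, while the inhibitor genes Serpine2 and Serpinb2 fell (-0.82 ± 0.08 and -1.21 ± 0.33).

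**Figure D4:**
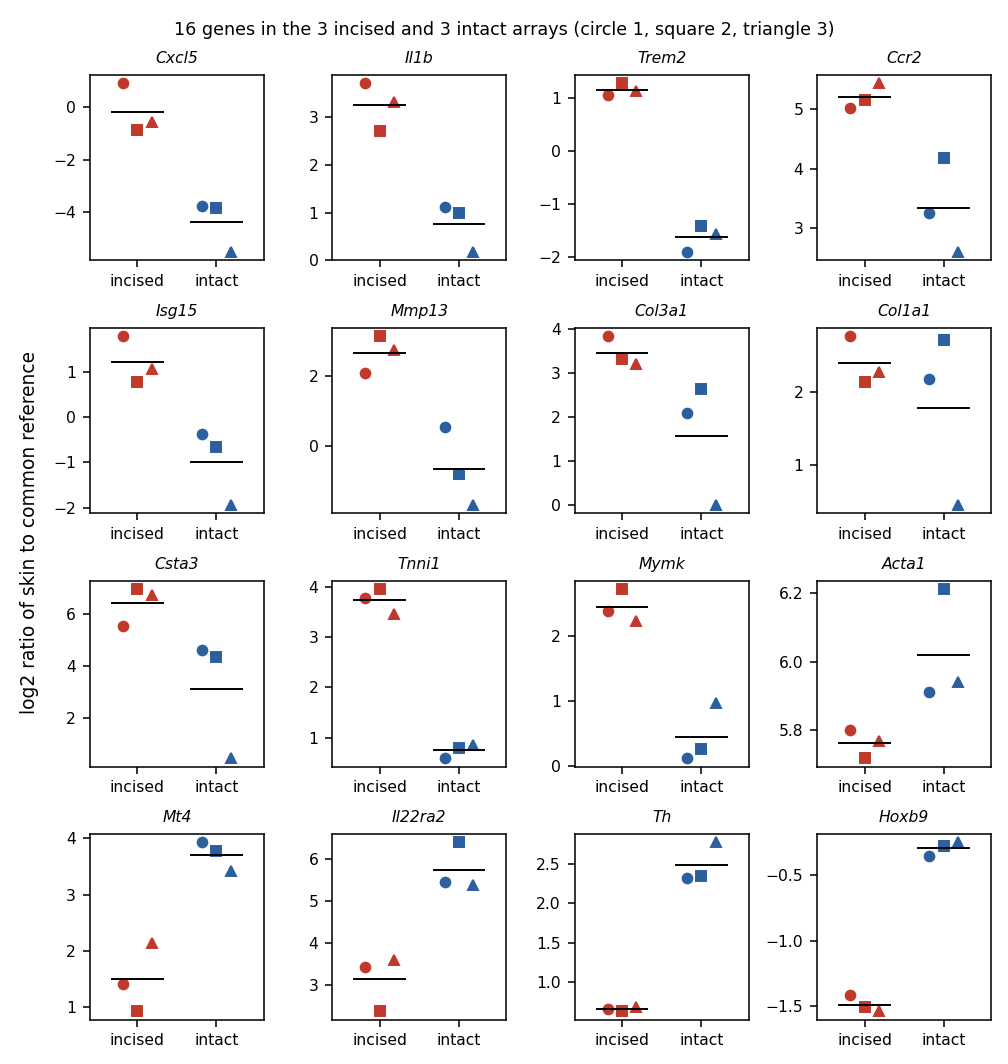
Log2 ratio of skin to reference for 16 genes in the 3 incised (red) and 3 intact (blue) arrays; circles, squares and triangles are replicates 1, 2 and 3, and black bars are group means. Trem2, Tnni1, Th and Hoxb9 form tight, separate groups, while Csta3 and Col3a1 owe much of their spread to intact array 3 (0.47 and -0.01) and Col1a1 overlaps.

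Genes of activated keratinocytes had a high median but leaned on a single array. Of 29 measured, 10 were higher (34.5% against 9.87% of all genes) and 0 lower, with a median of 1.03. Without intact array 3 this was 0.66, with 4 higher and 1 lower, and without both arrays rich in adipocyte markers 1 was higher and 1 lower. The protease inhibitor Csta3 read 5.54, 6.96 and 6.73 in incised skin but 4.62, 4.34 and 0.47 in intact skin. Its rise of 3.27 ± 0.98 (adjusted p = 0.046) was 1.94 without intact array 3 (adjusted p = 0.0745). The related Stfa2l1 rose by 2.86 ± 0.73, or 1.99 without that array (adjusted p = 0.0506), and the gasdermin gene Gsdmc3 by 3.11 ± 0.74, or 2.19 without it (adjusted p = 0.0333). The probes of Csta3 and Stfa2l1 shared no run longer than 9 of 60 bases. Fscn1, an actin-bundling protein of migrating cells, rose by 1.36 ± 0.17 and by 1.24 without that array, with values of -0.51, -0.19 and -0.34 in incised and -1.52, -1.64 and -1.96 in intact skin.

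Few genes of resting epidermis were called. Of 29 genes of differentiation and barrier 1 was called higher (3.45% against 9.87% of all genes). Of 10 basal keratinocyte genes 1 was called lower (10% against 5.57%): Itga3, an integrin that anchors basal cells, fell by 1.12 ± 0.20 (adjusted p = 0.00613). At an unadjusted limma p under 0.05, 3 of the basal genes were higher and 2 lower. The barrier median was 0.15, and -0.01 with median centring or -0.25 with Cy5 alone. Several single epidermal genes were nevertheless among the largest falls. Mt4, the metallothionein of stratified epithelia, read 1.41, 0.93 and 2.15 in incised and 3.93, 3.78 and 3.42 in intact skin, a fall of 2.21 ± 0.28 on the log2 scale (adjusted p = 0.00116) with a wide gap. Calm5, a calmodulin-like gene, fell by 1.91 ± 0.31 with no value on incised array 3. Ereg, an activating ligand of the EGF receptor, read -0.65, -1.47 and -0.67 in incised and 1.72, 1.21 and 0.41 in intact skin and fell by 2.04 ± 0.40 (adjusted p = 0.00843). With Egf at -0.58 ± 0.13 and Fgf1 at -0.72 ± 0.17 (another Fgf1 probe gave -0.19) it made up the 3 falls, against 1 rise, among 16 EGF receptor and FGF ligand genes. The falls were 18.8% of the list against 5.57% of all genes, and the rise 6.25% against 9.87%. Cyp1a1, the detoxifying enzyme induced through the aryl hydrocarbon receptor, fell by 2.40 ± 0.63 (adjusted p = 0.0283), with values of 2.60, 1.51 and 2.58 in incised and 4.58, 6.16 and 3.13 in intact skin.

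Of skeletal muscle genes, those of slow fibres were called higher more often than all genes, 60% against 9.87%, and those of fast fibres were not, at 9.52%; the difference between the lists was not tested. The slow troponin genes rose strongly. Tnni1 read 3.77, 3.95 and 3.46 in incised and 0.60, 0.79 and 0.85 in intact skin (2.98 ± 0.23, adjusted p = 0.0002). Tnnc1 read 2.80, 3.23 and 2.23 against -0.78, -0.68 and -0.20 (3.31 ± 0.32), and Tnnt1 rose by 3.09 ± 0.62. All incised arrays were above all intact arrays for these genes, but a lack of overlap was part of the rule that named them. Myh7, the slow myosin heavy chain, rose by 1.68 ± 0.18. Of 10 slow fibre genes 6 were higher, or 5 without intact array 3 and 3 without both arrays rich in adipocyte markers. The median of 0.74 was 0.73 without intact array 3, 0.75 without both those arrays and 0.94 with slide as a fixed block. With Cy5 alone 5 were higher and 1 lower, and with slide as a fixed block 0 were called. Of 21 fast fibre genes 2 were higher, Myh4 by 0.46 ± 0.13 and Pvalb by 0.39 ± 0.10 (Pvalb at -0.72 with Cy5 alone), and neither without intact array 3. The list had a median of 0.05 that was -0.12 with median centring and -0.35 with Cy5 alone.

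Of 23 genes of regenerating or denervated muscle, 9 were higher and 0 lower (39.1% against 9.87% of all genes), 5 were negative, and the median was 0.48. Mymk, which lets myoblasts fuse, read 2.39, 2.72 and 2.23 in incised and 0.12, 0.27 and 0.96 in intact skin (2.00 ± 0.21, adjusted p = 0.000485). Its partner in fusion Mymx, named after its value was seen, rose by 2.51 ± 0.76, with intact array 3 at 2.83 near the incised values of 3.81, 3.82 and 3.26. The fetal actin Actc1 rose by 2.37 ± 0.30. Igf2, a growth factor, rose by 1.66 ± 0.19 and the imprinted Mest by 3.44 ± 0.42, whose other probes gave 0.71 and 2.63. The transcription factors that set the muscle fate stood lower in the list, with Myog at 0.25, Myf5 at -0.06 and Myod1 at -0.12, none of them called and named after their values were seen. Among the largest falls were also 2 muscle genes: Vgll2, a cofactor of muscle transcription, at -1.67 ± 0.41, and Abra, an actin-binding protein of striated muscle, at -1.63 ± 0.39.

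Some genes of nerves fell. All 13 Schwann cell markers were negative and 6 were called lower (46.2% against 5.57% of all genes), with a median of -0.79. The median was -0.62 without intact array 3, when 3 were called, and also with slide as a fixed block. Gldn, a protein that helps Schwann cells cluster sodium channels at nodes, read 1.98, 1.79 and 2.49 in incised and 2.98, 2.77 and 2.88 in intact skin, a fall of 0.79 ± 0.19 (adjusted p = 0.0216). Sox10, the transcription factor of the Schwann cell lineage, fell by 0.62 ± 0.16, but not without intact array 3 (-0.53, adjusted p = 0.0777). Prx, a protein of the myelin sheath, fell by 1.85 ± 0.48, but not without intact array 3 (-1.37, adjusted p = 0.0747), which held its highest value of 2.77. Without both arrays rich in adipocyte markers 1 of the 13 was called. Th, the rate-limiting enzyme of catecholamine synthesis in sympathetic nerves, gave the smallest p of all falls (chromosome 7, 150078703 to 150078762). It read 0.65, 0.62 and 0.68 in incised and 2.33, 2.36 and 2.78 in intact skin, a difference of -1.84 ± 0.12 (adjusted p = 0.000119). The noradrenaline transporter gene Slc6a2 and the vesicle transporter gene Slc18a2, both named after their values were seen, fell (-1.25 ± 0.27 and -0.57 ± 0.12). Dbh, for a later enzyme of noradrenaline synthesis, and Npy, chosen likewise, were not well above background in intact skin. The sodium channel gene Scn2a fell by 1.86 ± 0.30, with other probes at -1.59 and -0.43.

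Immediate early genes, which cells switch on within minutes of a stimulus, were lower where they differed. Of 16 measured, 0 were higher and 4 lower (25% against 5.57%), with a median of -0.46. Dusp1, a phosphatase of stress kinases, read -0.34, -0.52 and -0.59 in incised and 1.47, 0.71 and 0.92 in intact skin (-1.51 ± 0.21, adjusted p = 0.00189). Nr4a1, Klf4 and Myc, all transcription factor genes, fell too (-1.49 ± 0.34, -1.10 ± 0.19 and -0.58 ± 0.13). Of 16 circadian clock genes the repressor genes Cry2 and Nr1d1 fell (-0.76 ± 0.13 and -0.92 ± 0.19), and the list median was -0.40. These calls were 12.5% of the list, against 5.57% of all genes. The hour of day at which either group was taken is not given in the labels used here.

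Few genes of respiration and of the cell cycle were called. All 27 subunits of oxidative phosphorylation were negative with a median of -0.31, and 2 were called lower (7.41% against 5.57% of all genes). With median centring 14 were called lower (median -0.50), and without intact array 1 10 were. The 2 oxidative phosphorylation subunits were Uqcrc1 at -0.48 ± 0.09 and Ndufa4 at -0.55 ± 0.17 (without intact array 3 -0.41, adjusted p = 0.132). All 32 cell cycle genes were positive with a median of 0.62, which was 0.27 without intact array 3. Of these 1 was called (3.12% against 9.87% of all genes): the spindle gene Tpx2 at 1.08 ± 0.32, though not without that array (adjusted p = 0.073). Of 24 hypoxia and glycolysis genes 6 were higher (25% against 9.87% of all genes) and 0 lower, or 1 and 0 without intact array 3. The median was 0.26. Among the 6 was the glucose transporter Slc2a1 at 0.80 ± 0.19. Of 18 angiogenic genes 7 were higher and 1 lower (38.9 and 5.56%), or 2 and 1 without both arrays rich in adipocyte markers. Apln, a peptide of sprouting vessels, and its receptor gene Aplnr rose by 1.30 ± 0.29 and 0.89 ± 0.17, and Angptl2 fell by 0.59 ± 0.13. Limma called none of 12 blood endothelium markers and none of 17 adipocyte markers (3 and 0 at an unadjusted p under 0.05).

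The Hox genes, whose expression in adult skin is known to mark position along the body, were looked at after several of them appeared among the falls, so the family is described without a test of its own. Of the 32 Hox genes described, 7 were called lower and 0 higher. Those of paralog groups 9 to 13 were all negative, 12 of 12, with 6 called lower (50% against 5.57% of all genes tested) and a median log2 difference of -0.48, which was -0.33 without intact array 3 and -0.47 with slide as a fixed block. Among the 12, Hoxa11, Hoxd10 and Hoxc12 lay within their standard errors of 0 (-0.02 ± 0.09, -0.03 ± 0.12 and -0.05 ± 0.12). Hoxa11 was positive without intact array 3 (0.04), as were Hoxa11 and Hoxc12 with slide as a fixed block (0.01 and 0.34). Those of groups 2 to 8 had a median of -0.24, with 17 of 20 negative and 1 called lower. Hoxb9 read -1.42, -1.50 and -1.54 in incised and -0.36, -0.29 and -0.25 in intact skin, a difference of -1.19 ± 0.11 (limma adjusted p = 0.000352; probe on chromosome 11, 96137748 to 96137807, mm9). Hoxa10 read -0.87, -1.06 and -1.40 against 0.07, 0.10 and 0.80 (-1.43 ± 0.21). Hoxc9 and Hoxc10 differed by -1.60 ± 0.30 and -1.37 ± 0.25, with intact array 3 the highest of the 6 in each. Hoxa7 and Hoxd9 fell as well (-0.95 ± 0.13 and -0.46 ± 0.09), and the groups did not overlap for either. Hoxa9 fell by 0.65 ± 0.17 (another probe gave -0.93; without intact array 3 -0.48, adjusted p = 0.0807). Whether the incisions and the intact skin lay at the same level of the trunk is not given in the labels used here.

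**Figure D5:**
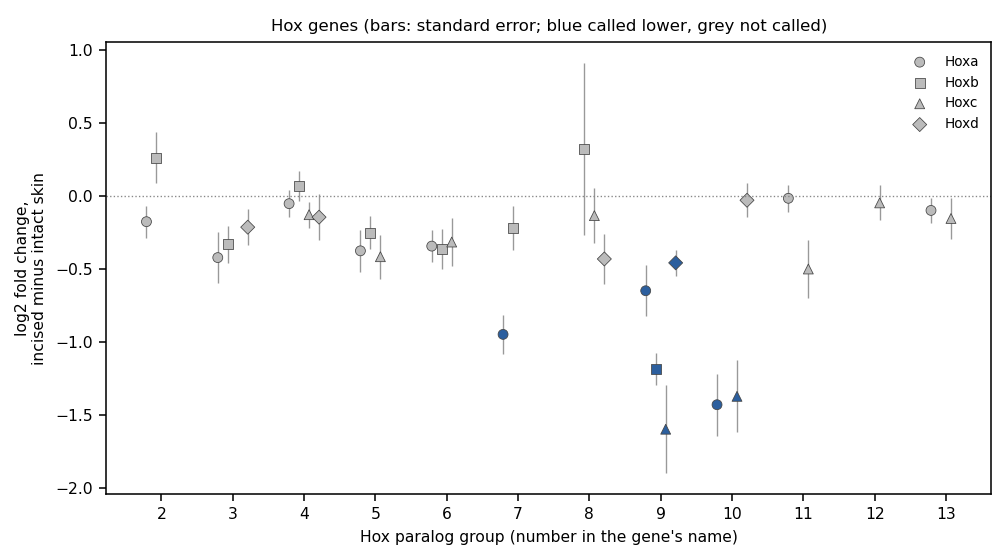
Log2 fold change of incised over intact skin for 32 Hox genes, with standard error, by paralog group from 2 (anterior) to 13 (posterior); marker shapes give the cluster, and blue points were called lower. The called falls lie in groups 7, 9 and 10.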

How the data were processed

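Per the file headers, the 12 dual-colour scanner files gave the intensity of each spot and of its local background in both dyes. The headers name Feature Extraction 11.5.1.1, and probe positions are on mm9. Agilent's processed intensity and log10 ratio served as an alternative, as did the authors' deposited log2 table, whose columns tracked skin over reference. Mean intensities were background-corrected with limma 3.58.1 in R 4.3.3 (normexp, offset 50) and loess-normalized within arrays. Control spots had weight 0, and spots marked as outliers were left out, so 423 genes lacked a value on some of the 6 arrays. Probes whose Cy5 signal cleared background on fewer than 3 of 12 arrays were dropped (65.7 to 73.9% of probes per array cleared it; Cy5 was 3.67 to 5.00 times background; 0 spots were saturated). A gene with several probes took the brightest. Of 39429 probes, 27104 were kept.

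Group means of all 12 arrays were fitted with lmFit and eBayes. P values are 2-sided and adjusted by Benjamini-Hochberg, and errors after differences are standard errors. The number of arrays limits the precision. "At least" folds set the brighter group against the lowest signal well above background.

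Named genes were the 15 largest rises and falls among called, non-overlapping genes without RIKEN, predicted or unnamed genes, up to 4 members of smallest p and 2 contrary calls per list described, all ELR chemokine and protease genes, and fixed controls. Others are marked. Not all that meet the rule are printed, and some items are not reported here. The comparison and the lists were chosen with earlier results of these data known. The fit was tested on simulated data of independent arrays, without slide differences or outlying arrays, so that test does not cover those.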

Additional observations from a re-analysis of the deposited data

How the results depend on the processing

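Of 21 alternatives, most kept both counts within 1.5 times 2020 higher and 1139 lower. Those that moved a count were Cy5 alone (1078 and 664), a fit of only the 6 arrays (1006 and 354), slide as a fixed block (9 and 2, with 2723 genes at an unadjusted p under 0.05), slide as a random block (697 lower), median centring (2009 lower) and, chosen after seeing the data, leaving out both arrays of high adipocyte value (1064 and 461). Leaving out 1 array gave 1132 to 1883 higher and 503 to 1080 lower. Counts moved past 1.5 times without incised array 1 (1132 and 558), incised array 2 (503 lower) and incised array 3 (1334 and 552). Of the calls, 972 higher and 343 lower held in all 6 such fits. Signs turned for Pvalb and Tgm3 with Cy5 alone (-0.72 and -0.16), for Tpsb2 with the mean over probes (-0.075) and for Sfrp5 with slide as a fixed block (0.054). With the mean over probes the Tgm3 log2 fold change was -0.003211. Median centring moved higher calls from 15 to 11 for recruited macrophage markers, 13 to 8 for lysosomal and 7 to 3 for collagen processing genes. It also moved them from 7 to 4 for angiogenic, 6 to 1 for hypoxia and 5 to 2 for complement genes. Lower calls went from 2 to 5 for clock genes. The causes were not tested. With a replicate block 1845 genes were higher and 953 lower. Deviations of arrays with the same number correlated at 0.12, -0.25 and -0.43. Outlying arrays enter these values, so they cannot decide whether arrays with the same number shared more than that number. The labels number the replicates within each group and name no pairs. Slides are confounded with the groups, apart from the link through the mimic arrays, and each group had 3 arrays.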

Other observations

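Antimicrobial, acute-phase and complement genes differed in both directions. Of 21 antimicrobial and acute-phase genes 4 were higher and 2 lower by limma (19 and 9.52% against 9.87 and 5.57% of all genes), with a median of 0.28. Slpi, an inhibitor of neutrophil elastase, read -1.16, -0.82 and -1.53 in incised and -3.16, -2.52 and -3.43 in intact skin, a rise of 1.87 ± 0.30 (adjusted p = 0.00347). Ptx3, a pattern recognition protein, rose by 1.10 ± 0.20, while Orm1, a plasma acute-phase protein, fell by 0.98 ± 0.22. Of 18 complement genes 5 were higher and 1 lower (27.8 and 5.56%), or 1 and 0 without intact array 3. C3ar1, the receptor for the complement fragment C3a, read 1.73, 1.61 and 1.65 against 0.42, 0.81 and 0.16, a rise of 1.20 ± 0.14. C7, of the membrane attack complex, fell by 0.83 ± 0.24, though not without intact array 3 (adjusted p = 0.0895).

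Several of the largest changes belonged to no list. Uox, urate oxidase, read 2.09, 3.96 and 3.39 in incised and 0.15, 0.30 and -0.11 in intact skin, a rise of 3.03 ± 0.50 (limma adjusted p = 0.00386), and its other probe gave 1.25. Slc16a11, of the monocarboxylate transporter family, differed by -1.72 ± 0.25, the apolipoprotein gene Apoc4 by -1.62 ± 0.30 and the glycosyltransferase gene Galnt15 by -1.79 ± 0.41. The groups did not overlap for any of these 4 genes, but a lack of overlap was part of the rule that named them.

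Npy1r, a receptor for neuropeptide Y, read -0.28, -0.84 and -0.41 in incised and 0.47, 1.17 and 0.64 in intact skin, a fall of 1.27 ± 0.28 (limma adjusted p = 0.0138). The serotonin transporter gene Slc6a4 differed by -1.52 ± 0.28 and Calcb, a calcitonin gene-related peptide of sensory nerves, by -1.52 ± 0.46. These 3 were named after their values were seen. Rspo1, which strengthens Wnt signals, read 2.26, 0.81 and 1.56 in incised and 3.61, 3.02 and 2.94 in intact skin and fell by 1.65 ± 0.35. Among secreted Wnt antagonists Sfrp2 rose by 1.12 ± 0.20 and Sfrp5 fell by 0.66 ± 0.20 (0.05 with slide as a fixed block, and not called without intact array 3). Thus 1 of 10 was called each way, 10% against 9.87% of all genes for rises and 5.57% for falls. The share of rises was near that of all genes. Hair follicle markers had a median of -0.98 with none of 14 called by limma (2 lower and 0 higher at an unadjusted p under 0.05), and it was -0.10 without intact array 2. In that array the hair keratin Krt71 read 5.96, against 0.40 to 1.04 on the other 5 arrays, a gene picked after its values were seen.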
